A study of Mus musculus with 13 samples.

Results

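Ribosomal protein genes encode the proteins that, with the ribosomal RNAs, build the cytosolic ribosome. The set described here is every gene of the count table whose symbol is Rpl or Rps followed by a number and at most 1 letter of a, l or x, together with Rplp0, Rplp1, Rplp2 and Rpsa. It held 80 of the 23418 genes of the table, 49 of the large 60S subunit and 31 of the small 40S subunit. The symbols chose the members and no measured value did. Ribosomal protein genes whose symbols are written otherwise, such as Rps3a1, Fau and Rpl22l1, fall outside the set and are given beside it.

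Bulk RNA sequencing was done on 13 mouse samples in 3 groups, 4 of muscle FAPs (numbered 2 to 5), 5 of lung FAPs (numbered 1 to 5) and 4 of MEFs (numbered 1 to 4). FAP is the field's abbreviation for fibro/adipogenic progenitor, a mesenchymal cell of tissue interstitium that in muscle supports satellite cells, and MEF that for mouse embryonic fibroblast, a cell usually grown in culture. The series was made to find transcripts of muscle FAPs that drive satellite cells to differentiate, with lung FAPs beside them. Its design also names parabiosis, the joining of the circulations of a pair of animals, which the labels tie to no sample. The labels give no genotype, treatment, time or age for any group and do not say how FAPs were isolated. Nor do they say that replicates were separate animals or cultures, and the p-values then reflect only how far these samples differ, in part perhaps for technical reasons.

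The ribosome reads mRNA on its 40S subunit and joins amino acids on its 60S subunit, and nearly all of its proteins are needed in equal numbers. Their mRNAs are short, abundant and begin with a C followed by a run of pyrimidines, the 5′ terminal oligopyrimidine (TOP) motif, through which the kinase mTORC1 and the protein Larp1 set how strongly they are translated. Few ribosomal proteins have a second gene that is active outside the germline, and many have processed pseudogenes that copy the mRNA.

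The sequences at the gene starts hold some letters more often in these genes than in all genes. In the RefSeq table of promoters, of build GRCm38.p6, 60 of the 80 genes were matched by symbol, with 250 bases before and 50 after each start. A run of at least 8 pyrimidines (C or T, read on the gene's strand, within the last 75 bases of the window) was present in 80% of the 60 genes and in 30.4% of all 27025 genes of that table. A C followed by 4 pyrimidines exactly at the annotated start was present in 21.7% and in 3.01%. The letters CCGGAAG, the core bound by ETS family factors, stood on either strand in 41.7% and in 9.93%. A match is a description of the letters only. The windows below are the 30 bases around the annotated start of 7 members, with the pyrimidine run in capitals, shown as examples of the run in both subunits. All 7 are among the 21.7% with a C and 4 pyrimidines exactly at the start, which most of the 60 genes lack.
The windows lie at chr4:86857353-86857382 (-), chr2:39005117-39005146 (-), chr7:4792950-4792979 (+), chr17:33955651-33955680 (-), chr17:27635230-27635259 (-), chr11:114668565-114668594 (+) and chr14:18270972-18271001 (-) in the order of the lines that follow.
Rps6: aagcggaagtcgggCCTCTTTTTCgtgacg
Rpl35: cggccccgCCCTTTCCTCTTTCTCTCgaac
Rpl28: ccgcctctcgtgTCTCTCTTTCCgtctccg
Rps18: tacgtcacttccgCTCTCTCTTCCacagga
Rps10: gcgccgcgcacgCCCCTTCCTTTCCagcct
Rpl38: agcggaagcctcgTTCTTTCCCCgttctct
Rpl15: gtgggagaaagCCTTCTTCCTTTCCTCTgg

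A pair of 120-base stretches that end at the annotated start, one that holds CCGGAAG (in capitals) and one that does not, are those of Rpl38, a 60S gene, at chr11:114668460-114668579 (+), and Rps27l, the gene with the largest difference from MEFs among those of at least 10 CPM, at chr9:66945966-66946085 (+). Both genes are among the 41.7%, Rps27l for letters in the part of its window that is not printed.
Rpl38: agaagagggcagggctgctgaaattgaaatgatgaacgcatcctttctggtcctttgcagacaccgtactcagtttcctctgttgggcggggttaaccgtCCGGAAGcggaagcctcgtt
Rps27l: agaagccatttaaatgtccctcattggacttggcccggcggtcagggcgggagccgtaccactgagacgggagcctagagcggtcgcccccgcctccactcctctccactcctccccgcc

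The libraries held 28636183 to 44699463 counts each in the deposited table. Levels are CPM, the count scaled to a common library size with TMM (the trimmed mean of M values), and are given as mean ± SD with n = 4 muscle FAPs, n = 5 lung FAPs and n = 4 MEFs. FAP markers (Pdgfra, Ly6a, Cd34, Dcn and Lum, 5 of 5 detected in every group) summed to 24223 to 28120 CPM in muscle FAPs, 13469 to 24254 CPM in lung FAPs and 215 to 237 CPM in MEFs. Lung epithelial markers summed to 8108 CPM in lung FAP 3 and to 25.9 to 115 CPM in the other lung FAPs, endothelial markers to 509.8 CPM in lung FAP 2 against 31.0 to 149 CPM in the others, and blood markers to 645 CPM in lung FAP 3 against 20.97 to 43.2 CPM. In muscle FAPs these 3 lists summed to at most 11.02 CPM. In MEFs blood markers summed to 98.0 to 405 CPM and endothelial markers, mostly Kdr, to 160.3 to 193 CPM, while Hba-a1 had 0 counts in all libraries and Cd3e 0 in muscle FAPs and MEFs. Pericyte and smooth muscle markers summed to 61.6 to 68.9 CPM in muscle FAPs, 218 to 1459 CPM in lung FAPs and 2003 to 3537 CPM in MEFs, and muscle fibre markers to at most 75.05 CPM in any library. The main counts that rest on lung FAPs are also given without lung FAP 2 and 3, and the part that other cells play in the results was not tested.

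Ribosomal protein mRNA took a smaller share of the counts in both kinds of FAP than in MEFs. The 80 genes summed to 2.58, 3.03, 3.23 and 3.61% of all counts in muscle FAPs 2 to 5. They summed to 3.69, 3.8, 3.57, 5.25 and 3.33% in the lung FAPs 1 to 5 and to 5.62, 6.03, 5.9 and 5.29% in MEFs 1 to 4. The mean share was 3.11 ± 0.429% in muscle FAPs, 3.93 ± 0.758% in the lung FAPs and 5.71 ± 0.326% in MEFs. All 9 FAP libraries lay below all 4 MEF libraries, and lung FAP 4 stood nearest to the MEFs. In bulk samples fewer cells of a type and less RNA per cell cannot be told apart. A share also falls where a few other genes take more of the counts, and the 100 genes of highest level outside the set took 34.9 to 35.9% of the counts of muscle FAPs, 22.99 to 29.4% of those of lung FAPs and 12.9 to 13.8% of those of MEFs. As a percent of the TMM effective library size, which discounts such genes, the sum came to 3.92 ± 0.540% in muscle FAPs, 3.74 ± 0.731% in the lung FAPs and 4.82 ± 0.323% in MEFs. On that scale lung FAP 4, at 4.99%, lay inside the MEF range of 4.497 to 5.11%, and the mean of muscle FAPs no longer lay below that of lung FAPs.

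**Figure D1:**
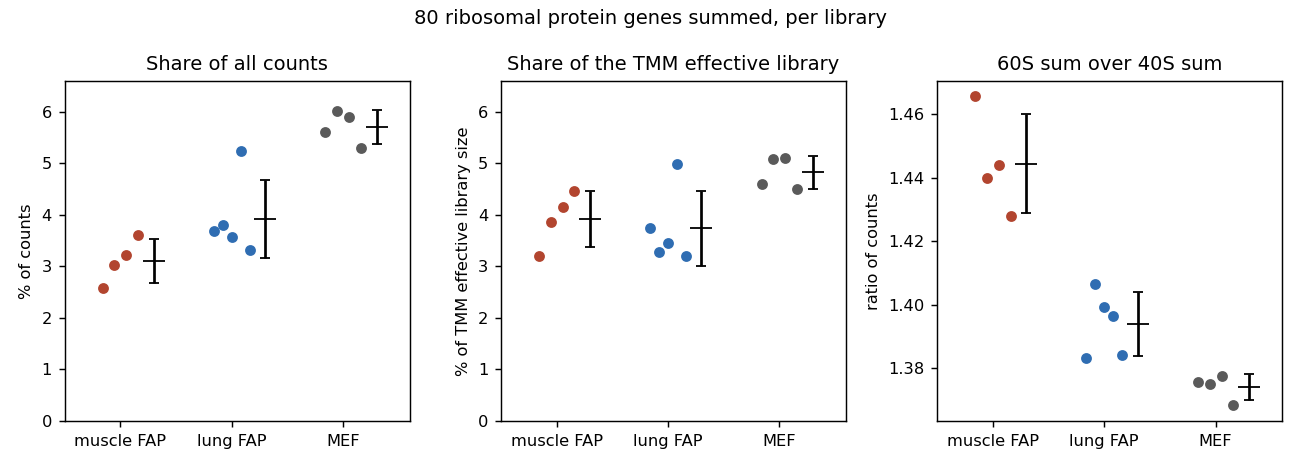
Each point is 1 library, for muscle FAPs, lung FAPs and MEFs from left to right, and the black bar is the group's mean ± SD. The left and middle panels give the 80 genes' summed counts as a percent of all counts and of the TMM effective library size, with axes from 0, and the right panel gives 60S counts over 40S counts on an axis that does not start at 0. Lung FAP 4 stands above the other lung FAPs at 5.25% of counts.

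The balance of the subunits differed by group as well. Counts of the 60S genes over those of the 40S genes came to 1.466, 1.44, 1.444 and 1.428 in muscle FAPs 2 to 5. The ratio was 1.383, 1.407, 1.399, 1.396 and 1.384 in lung FAPs 1 to 5 and 1.376, 1.375, 1.377 and 1.368 in MEFs 1 to 4. The 3 groups did not overlap, and muscle FAPs had the highest ratio. The ratio is one of reads and depends on transcript length, so only its differences between libraries are read here. These are not free of length either, since fold changes between muscle and lung FAPs went with coding length (Pearson's r = 0.57, below). The part of length in the ratio was not tested.

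Within each kind of FAP the genes of a library moved together. Lung FAP 4 was the highest lung FAP library for 73 of the 73 genes that averaged 10 CPM or more, at a median of 1.45 times the mean of the other lung FAPs. Muscle FAP 2 was the lowest muscle FAP library for 73 of 73, at a median of 0.766 times the mean of the others, and muscle FAP 5 the highest for 65. MEFs showed no such library, since MEF 2 and MEF 3 were each highest for 31 genes and MEF 4 for 10. The median coefficient of variation over replicates was 14.6% in muscle FAPs, 19.6% in the lung FAPs and 7.44% in MEFs. Taken as a percent of the 80 genes' sum, the variation was smaller, with medians of 3.99% in muscle FAPs, 4.03% in the lung FAPs and 5.50% in MEFs.

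**Figure D2:**
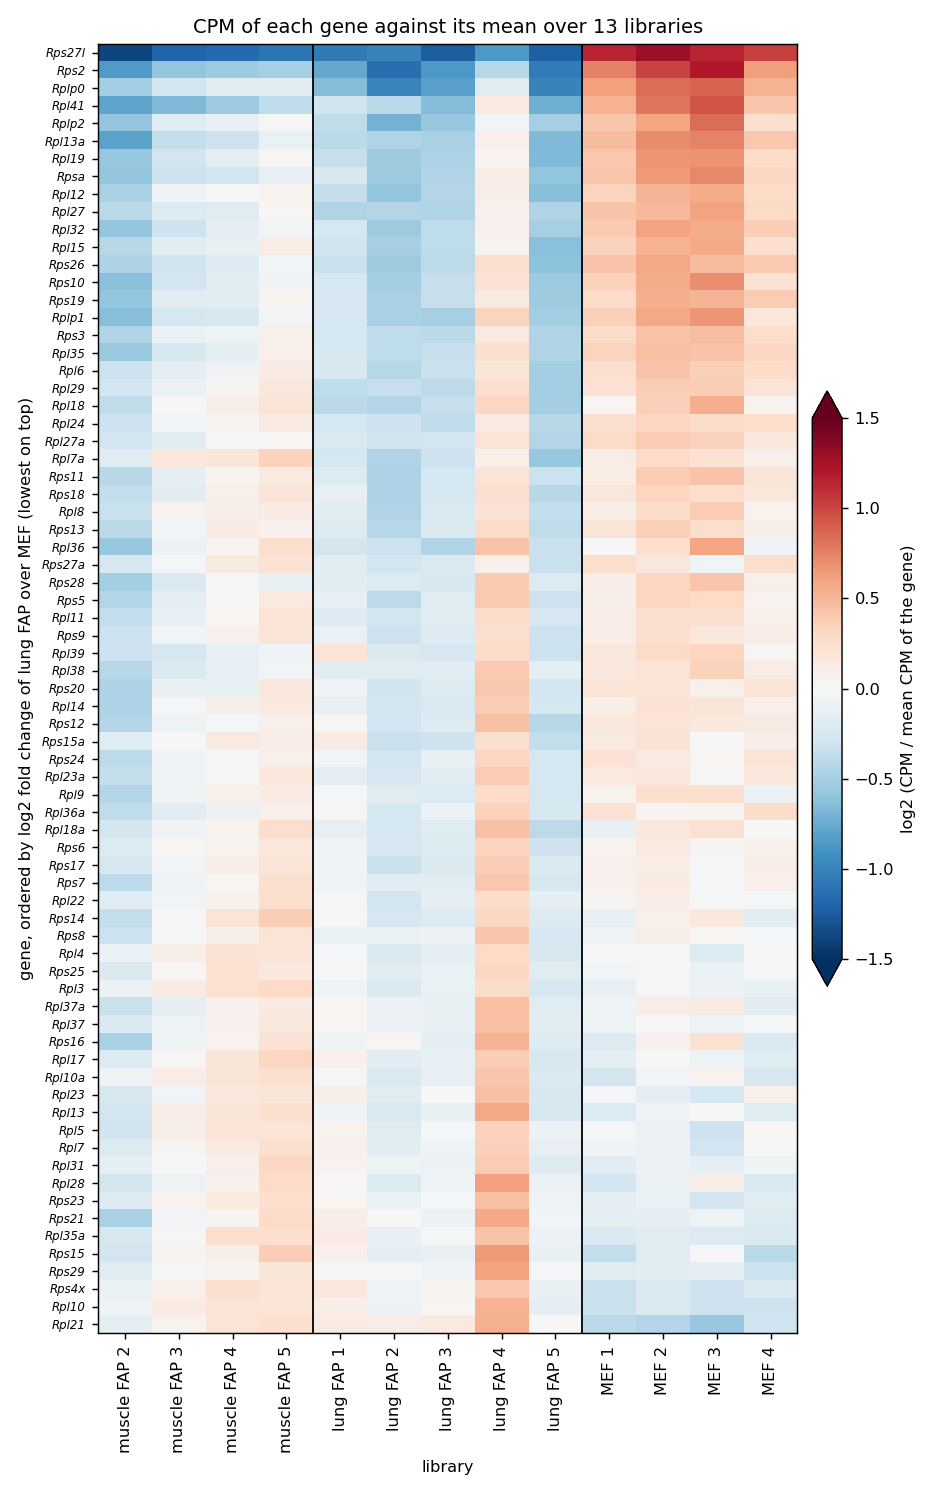
Each row is 1 of the 73 genes that averaged 10 CPM or more and each column 1 library, with muscle FAPs, lung FAPs and MEFs from left to right. Colour is log2 of the gene's CPM over its mean in all 13 libraries, blue below and red above the mean, and rows run from the lowest to the highest fold change of lung FAPs over MEFs. The rows at the top, led by Rps27l and Rps2, are blue in all FAP libraries, and the column of lung FAP 4 is the reddest of the lung FAPs.

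Not every symbol carried reads. Rpl26, at chr11:68901583-68906989 in GRCm38, had 0 counts in all 13 libraries. Rpl30 had 0 to 55 counts a library, Rpl34 0 to 40 and Rps27 20 to 61, whereas Rps6 had 21995 to 42427. All 4 encode proteins of the common ribosome, so these counts are not read as low expression. Other annotated genes repeat 87.4% of the 50-base windows of Rpl26's coding sequence, 83.3% of Rpl30's, 71.5% of Rpl34's and 100% of Rps27's in GENCODE M21, but also 100% of those of Rpl17, which had 16384 to 27453 counts. How reads that fit several copies were counted is not given in the sources used here, and its part in these values was not tested. Of the 80 genes, 66 share at least 50% of such windows with another annotated gene, so a count for them can miss reads or hold those of a copy. The fits tested 77 of the 80 genes, leaving out Rpl26, Rpl3l and Rpl10l for low counts, and 73 averaged 10 CPM or more. Counts of genes that passed are over these 77.

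Few ribosomal protein genes passed between muscle FAPs and lung FAPs, the comparison that the series was designed around. Of the 77 genes tested, 2 were higher in muscle FAPs and 0 lower at an adjusted p under 0.05, in edgeR's quasi-likelihood test with Benjamini-Hochberg adjustment over 15412 genes. Of all genes tested, 48.2% passed, 23.2% higher and 25.0% lower. The genes that passed were Rpl39l, at a log2 fold change of 3.89, and Rpl7a, at 0.43. The median log2 fold change over the 77 was 0.05, beside −0.04 over all genes. At an unadjusted p under 0.05, 5 of the 77 were higher and 0 lower, the Wald test of DESeq2 called 4 higher and 0 lower (24.4% and 26.0% of all genes), and limma-voom 9 higher and 0 lower (26.0% and 26.5% of all genes). Without lung FAP 4, 14 of 77 were higher and 0 lower (23.6% and 24.2% of all genes) with a median of 0.19, and leaving out muscle FAP 4 or muscle FAP 5 left 1 higher. Without lung FAP 2 and 3 the counts were 2 and 0 (22.1% and 22.7% of all genes). Scaled by library size alone, 1 was higher and 41 lower (11.2% and 48.4% of all genes). The median of all genes then moved to −0.44 and that of the 77 to −0.35, so the set lay 0.09 above all genes under both scalings. A change of scaling moves all genes of a comparison alike, so this sameness was fixed beforehand and is no check. Over the 73 genes of at least 10 CPM the log2 fold changes ran from −0.23 to 0.43 with a median SE of 0.16, and differences within that range were mostly not detectable in a single gene.

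Rpl7a, a 60S protein, had 601, 759, 771 and 864 CPM in muscle FAPs 2 to 5, 569.5, 499, 544, 717 and 458 CPM in lung FAPs 1 to 5 and 739, 831, 792 and 721 CPM in MEFs 1 to 4. Muscle FAPs lay mostly higher, and the groups overlapped through lung FAP 4, which exceeded muscle FAP 2. The log2 fold change was 0.43 ± 0.15 (SE, edgeR adjusted p = 0.0196), and it did not pass without muscle FAP 4 (0.41, adjusted p = 0.0511), without muscle FAP 5 (0.35, adjusted p = 0.0661) or without lung FAP 2 and 3 (0.36, adjusted p = 0.0888) in edgeR. Nor did it pass under upper-quartile scaling (0.35, edgeR adjusted p = 0.052), library size alone (0.02, adjusted p = 0.91) or a block for replicate number (0.43, adjusted p = 0.0505). Of its coding windows 93.4% are shared with other annotated genes, 123 in number. Rplp0, the base of the P stalk that recruits elongation factors, averaged 1377 ± 148 CPM in muscle FAPs, 1032 ± 261 CPM in lung FAPs and 2760.0 ± 331 CPM in MEFs, with a log2 fold change of muscle over lung FAPs of 0.42 ± 0.17 (SE, edgeR adjusted p = 0.0515). At the other end of the order Rpl41, the shortest member, stood at −0.23, Rpl38 at −0.16, Rpl39 at −0.15, Rps21 at −0.15 and Rps28 at −0.14, and none of them passed. Of the genes listed for their counts above, Rpl34 stood at 1.58, Rpl30 at 1.47 and Rps27 at 0.56, none passing.

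The order within the set went with coding length. Across the 73 genes the log2 fold change of muscle over lung FAPs was larger for longer coding sequences, with Pearson's r = 0.57 and Spearman's rho = 0.56. Rpl41, Rpl38, Rpl39, Rps21 and Rps28, with coding sequences of 78, 213, 156, 252 and 210 bases, lay at the low end, and Rplp0 and Rpl7a, with 954 and 801 bases, at the high end. The points are genes of the same 9 libraries and are not independent. For muscle FAPs over MEFs r was 0.13 and for lung FAPs over MEFs −0.02. With GC content of the coding sequence r was 0.24, −0.15 and −0.20 in the 3 comparisons.

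Taking each gene against the sum of the set removes what the genes share. In a second edgeR fit the library size was the summed count of the 80 genes, so that a gene that passes has moved against the rest of the ribosome's mRNAs. For muscle against lung FAPs 3 of 77 passed higher and 0 lower, where 37.6% of all genes passed, 15.1% higher and 22.5% lower. These were Rpl39l at 3.87, Rplp0 at 0.36 (adjusted p = 0.0288) and Rpl7a at 0.35 (adjusted p = 0.0225), beside a median of −0.12 over all genes. At an unadjusted p under 0.05, 4 were higher and 1 lower in this fit, which was not repeated with another tool. The calls of Rplp0 and Rpl7a were lost without muscle FAP 3 (edgeR adjusted p = 0.0657 and 0.0619), where 1 gene was higher, and without lung FAP 2 and 3 (adjusted p = 0.134 and 0.0669), where Rpl39l and Rpl34 were higher. Both calls were lost as well with a block for replicate number (edgeR adjusted p = 0.0942 for Rplp0 and 0.0833 for Rpl7a). That of Rplp0 was also lost without muscle FAP 4 or without lung FAP 2, 3 or 5 alone (adjusted p of 0.0558 to 0.0693 in edgeR).

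Both kinds of FAP were also set against MEFs, and these 2 comparisons share the 4 MEF libraries, so their values are given side by side without a count of overlap. In muscle FAPs against MEFs 3 of 77 genes were higher and 26 lower, where 73.5% of all genes passed, 36.1% higher and 37.3% lower. In lung FAPs against MEFs 4 were higher and 31 lower, where 74.4% of all genes passed, 37.8% higher and 36.6% lower. The median log2 fold changes were −0.21 for muscle FAPs and −0.24 for lung FAPs, beside −0.04 and 0.02 over all genes. By subunit, 2 of 46 tested 60S genes were higher and 17 lower in muscle FAPs than MEFs, and 1 of 31 40S genes higher and 9 lower. In lung FAPs the counts were 2 and 20 of 46 for 60S and 2 and 11 of 31 for 40S, and without lung FAP 2 and 3 they were 3 and 19 for 60S and 3 and 7 for 40S. Scaled by library size alone, 0 of the 77 were higher and 69 lower in muscle FAPs (24.4% and 52.5% of all genes), with a median of all genes of −0.62, and 1 higher and 48 lower in lung FAPs (33.9% and 41.0% of all genes), with a median of −0.15. The set stood at −0.17 relative to all genes in muscle FAPs and −0.26 in lung FAPs. These values are the same under both scalings because scaling moves all genes alike, which is no check of them. Without muscle FAP 4, 1 was higher and 26 lower in muscle FAPs (33.4% and 35.6% of all genes). Without lung FAP 4, 3 were higher and 49 lower in lung FAPs (36.9% and 37.6% of all genes), and without lung FAP 2 and 3, 6 and 26 (35.8% and 37.0% of all genes).

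**Figure D3:**
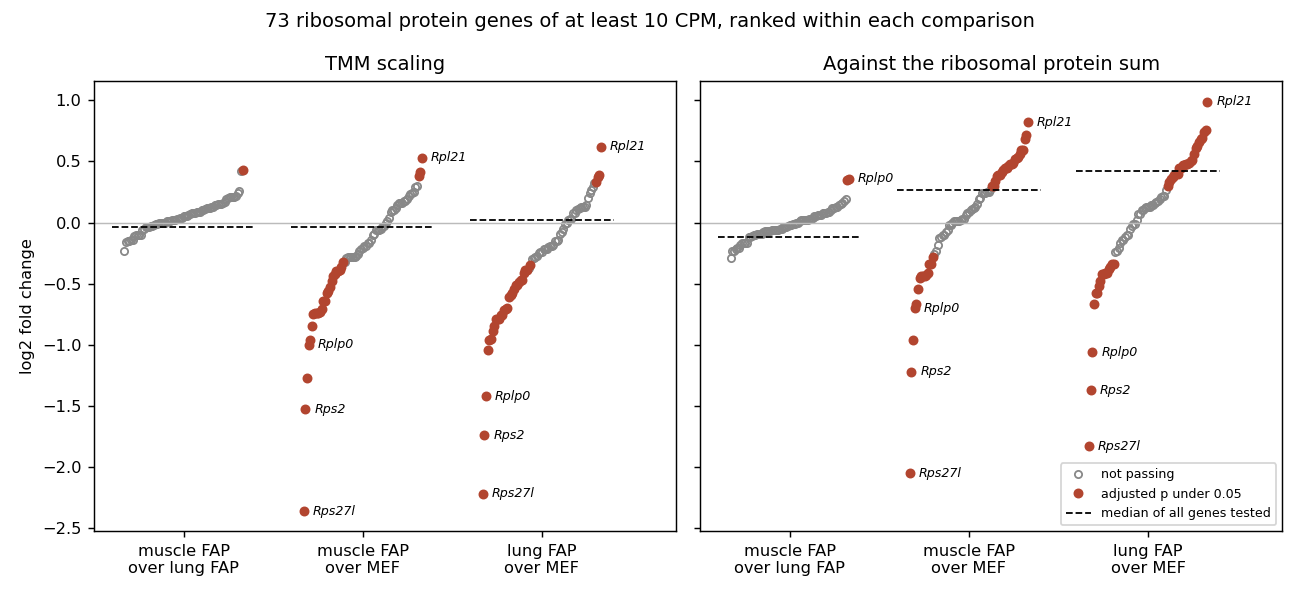
Each point is 1 of the 73 genes of at least 10 CPM, ranked from low to high within a comparison, and the vertical axis is its log2 fold change. The left panel uses TMM scaling and the right panel the summed counts of the 80 genes as library size, filled points have an adjusted p under 0.05 and the dashed line is the median of all genes tested. Muscle over lung FAPs lies close to 0, while both FAPs over MEFs run from Rps27l at −2.36 and −2.22 to Rpl21 at 0.53 and 0.62 under TMM scaling (by library size alone Rpl21 is at −0.05 in muscle FAPs).

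The genes that fell furthest below MEFs do different jobs. Of all 15412 genes tested, 73.9% did not overlap between muscle FAPs and MEFs and 65.3% between lung FAPs and MEFs. Of the 77 genes of the set 40.3% and 35.1% did not overlap. A lack of overlap with MEFs is therefore not particular to the genes named here and below. Rps27l, a 40S paralog and a known target of p53, at chr9:66946086-66949516, had 40.8, 46.2, 47.4 and 49.6 CPM in muscle FAPs 2 to 5, 51.1, 53, 45.2, 58.5 and 45.5 CPM in lung FAPs 1 to 5 and 234, 259, 234 and 217 CPM in MEFs 1 to 4. All 9 FAP libraries lay far below all 4 MEFs. Its log2 fold change was −2.36 ± 0.08 (SE, edgeR adjusted p = 4.17e-11) in muscle FAPs and −2.22 ± 0.088 (SE, edgeR adjusted p = 3.05e-11) in lung FAPs. Of the windows of Rps27l 49.0% are shared with other annotated genes. Rps2, which lines the mRNA entry of the 40S subunit, at chr17:24718116-24721929, had 758, 903, 938 and 969 CPM in muscle FAPs 2 to 5, 799, 624, 747, 1016 and 661 CPM in lung FAPs 1 to 5 and 2304, 2757, 3131 and 2112 CPM in MEFs 1 to 4. No FAP library reached the lowest MEF. The log2 fold change was −1.53 ± 0.15 (SE, edgeR adjusted p = 1.09e-06) in muscle FAPs and −1.74 ± 0.18 (SE, edgeR adjusted p = 1.11e-07) in lung FAPs. Of the windows of Rps2 84.2% are shared with other annotated genes, 71 in number, so its counts are uncertain.

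The P stalk, a flexible arm of the 60S subunit formed by Rplp0 with Rplp1 and Rplp2, which recruits elongation factors, was lower than in MEFs in all 3 of its genes in both FAPs. Rplp0, at chr5:115559467-115563727, had 1169, 1373, 1487 and 1479 CPM in muscle FAPs 2 to 5, 1062, 843, 952, 1469 and 833 CPM in lung FAPs 1 to 5 and 2558, 2983, 3094 and 2405 CPM in MEFs 1 to 4. Every FAP library was below every MEF library. The log2 fold change was −1.0 ± 0.12 (SE, edgeR adjusted p = 0.000118) in muscle FAPs and −1.42 ± 0.17 (SE, edgeR adjusted p = 1.7e-06) in lung FAPs. Rplp1 averaged 788 ± 129.8 CPM in muscle FAPs, 808 ± 229 CPM in lung FAPs and 1315 ± 201 CPM in MEFs, and Rplp2 220.3 ± 35.8 CPM in muscle FAPs, 191 ± 35.1 CPM in lung FAPs and 371 ± 65.5 CPM in MEFs. Their log2 fold changes were −0.74 in muscle FAPs and −0.70 in lung FAPs for Rplp1, with edgeR adjusted p = 0.0034 and 0.00304, and −0.75 in muscle FAPs and −0.96 in lung FAPs for Rplp2. In lung FAPs Rplp1 overlapped the MEFs through lung FAP 4.

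Rpsa, a 40S protein also known as the laminin receptor, at chr9:120127689-120132369, had 894, 1078, 1114 and 1235 CPM in muscle FAPs 2 to 5, 1139, 918, 982, 1453 and 891 CPM in lung FAPs 1 to 5 and 1790.5, 2096, 2209 and 1672 CPM in MEFs 1 to 4. The FAP libraries lay below all MEFs, with log2 fold changes of −0.85 ± 0.14 (SE, edgeR adjusted p = 0.000341) in muscle FAPs and −0.85 ± 0.16 (SE, edgeR adjusted p = 0.000178) in lung FAPs. Rpl41, whose peptide is the smallest of the ribosome, had 405, 443, 483 and 539 CPM in muscle FAPs 2 to 5, 569.6, 533, 449, 773 and 423 CPM in lung FAPs 1 to 5 and 1006, 1231, 1348 and 938 CPM in MEFs 1 to 4. No FAP library reached a MEF library. Muscle FAPs stood at −1.27 ± 0.15 (SE, edgeR adjusted p = 1.59e-05), and lung FAPs at −1.04 ± 0.2 (SE, edgeR adjusted p = 5.7e-05). Other annotated genes share 98.8% of the coding windows of Rpsa (28 genes) and 100% of those of Rpl41 (4 genes), so the counts of both are uncertain. Rpl13a, a 60S protein that in human monocytes also leaves the ribosome to silence mRNAs after interferon, averaged 625 ± 121 CPM in muscle FAPs, 629 ± 131 CPM in lung FAPs and 1216 ± 143 CPM in MEFs, with log2 fold changes of −0.96 in muscle FAPs and −0.95 in lung FAPs. Rpl19 stood at −0.74 in muscle FAPs and −0.89 in lung FAPs, Rpl32 at −0.74 in muscle FAPs and −0.79 in lung FAPs and Rps10 at −0.73 in muscle FAPs and −0.72 in lung FAPs, all past the threshold. Rpl30 is not read, since its fold changes of −2.56 in muscle FAPs and −4.02 in lung FAPs rest on 19 counts over the muscle FAPs, 8 over the lung FAPs and 153 over the MEFs.

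A few genes stood above MEFs. Rpl21, a 60S protein at chr5:146832890-146837032, had 542, 621, 683 and 714 CPM in muscle FAPs 2 to 5, 649.8, 644, 663, 865 and 599 CPM in lung FAPs 1 to 5 and 449.5, 441, 401 and 486 CPM in MEFs 1 to 4. Every MEF library lay below every FAP library. The log2 fold change was 0.53 ± 0.1 (SE, edgeR adjusted p = 0.00228) in muscle FAPs, where it turned to −0.05 under library size alone, and 0.62 ± 0.11 (SE, edgeR adjusted p = 0.000401) in lung FAPs, where it stayed at 0.45. Rpl10, one of the last proteins to join the 60S subunit, at chrX:74270812-74273135, had 964, 1094, 1157 and 1163 CPM in muscle FAPs 2 to 5, 1076, 946, 1027, 1448 and 908 CPM in lung FAPs 1 to 5 and 799, 866, 810.1 and 814 CPM in MEFs 1 to 4. All FAP libraries again exceeded all MEFs, with log2 fold changes of 0.41 ± 0.068 (SE, edgeR adjusted p = 0.0167) in muscle FAPs (−0.17 under library size alone and not passing without muscle FAP 4) and 0.39 ± 0.12 (SE, edgeR adjusted p = 0.0162) in lung FAPs (0.22 under library size alone). Other annotated genes share 100% of the coding windows of Rpl21 (82 genes) and of Rpl10 (15 genes), so the counts of both are uncertain.

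Rps4x, the X-linked 40S protein whose human gene has a counterpart on the Y chromosome, averaged 1175 ± 122 CPM in muscle FAPs, 1164 ± 170.3 CPM in lung FAPs and 902 ± 39.8 CPM in MEFs. Its log2 fold change was 0.38 ± 0.083 (SE, edgeR adjusted p = 0.016) in muscle FAPs, with −0.20 under library size alone and no pass without muscle FAP 4 or MEF 1, and 0.37 ± 0.096 (SE, edgeR adjusted p = 0.0146) in lung FAPs. Of the 4 X-linked members 2, Rpl10 and Rps4x, were higher in both FAPs than in MEFs under TMM scaling but not under library size alone (0 higher in either), while Rpl36a and Rpl39 stood at −0.28 in muscle FAPs and −0.18 in lung FAPs and at −0.39 in muscle FAPs and −0.25 in lung FAPs, Rpl39 passing as lower in muscle FAPs. Rps29, a small zinc-binding 40S protein, passed in lung FAPs alone at 0.33 ± 0.13 (SE, edgeR adjusted p = 0.0424) and stood at 0.22 in muscle FAPs. It lost the call in lung FAPs under 12 alternatives, leaving out lung FAP 4 among them (0.15, edgeR adjusted p = 0.155).

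**Figure D4:**
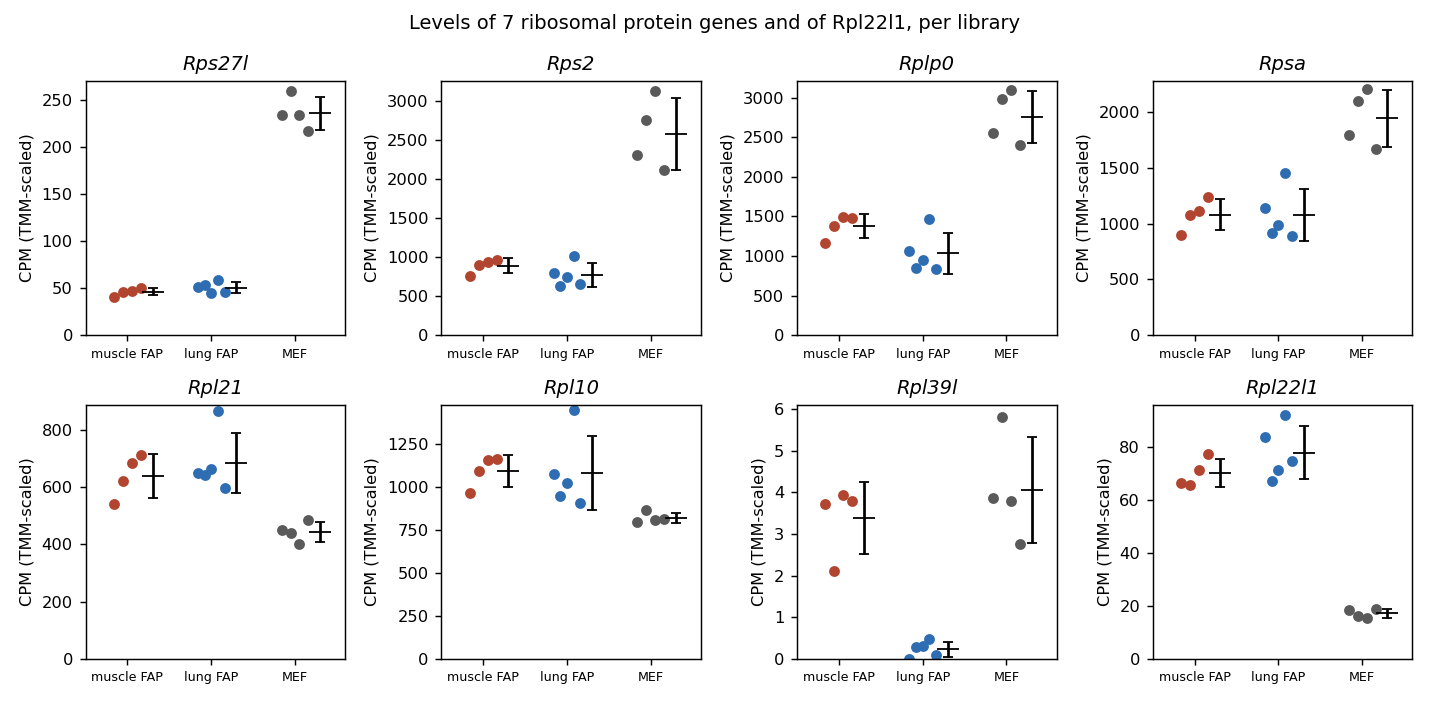
Each point is the TMM-scaled CPM of 1 library, for muscle FAPs, lung FAPs and MEFs from left to right, on axes from 0, and the black bar is the group's mean ± SD. Rps27l, Rps2, Rplp0 and Rpsa are lower in both FAPs than in MEFs, Rpl21 and Rpl10 are lowest in MEFs under this scaling, Rpl39l is near 0 in lung FAPs, and Rpl22l1, a gene outside the set, averaged 17.2 CPM in MEFs.

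Against the sum of the set some genes differed between FAPs and MEFs, in counts below or near the shares of all genes. In muscle FAPs 23 of 77 genes were higher than in MEFs and 16 lower, where 66.7% of all genes passed in that fit, 40.5% higher and 26.2% lower. In lung FAPs 25 were higher and 18 lower, where 68.3% passed, 45.1% higher and 23.2% lower. Without lung FAP 2 and 3 the counts were 21 and 15, where 6209 of all 15412 genes were higher and 3766 lower. The fall against the sum was largest for Rps27l (−2.05 in muscle FAPs and −1.83 in lung FAPs), Rps2 (−1.22 and −1.37) and, in lung FAPs, Rpl39l (−3.8), with Rpl30 set aside for its counts. Among genes that passed, the rise was largest for Rpl21 (0.82 and 0.99), Rpl10 (0.72 and 0.76) and Rps4x (0.68 and 0.74). All 3 passed in this fit, with adjusted p of 5.99e-05, 0.000104 and 0.000238 in muscle FAPs in edgeR. Its median over all genes was 0.27 in muscle FAPs and 0.42 in lung FAPs. The denominator is the set's own sum, so where a few members hold more of it in MEFs, the others rise against it in FAPs. The fit is therefore no separate check of the rises under TMM scaling. Rplp0 made up 3.52% of the set's counts in muscle FAPs, 2.74% in the lung FAPs and 5.71% in MEFs. Rps2 made up 2.28% in muscle FAPs, 2.06% in the lung FAPs and 5.31% in MEFs. The highest member per length depended on which length was used. Per kilobase of 1 chosen transcript a gene it was Rplp1, at 1579 CPM per kb in muscle FAPs, 1619.6 in the lung FAPs and 2634 in MEFs. Per kilobase of coding sequence it was Rpl41, at 5996 CPM per coding kb in muscle FAPs, 7045 in the lung FAPs and 14499 in MEFs. Of the coding windows of Rplp1 60.8% are shared with other annotated genes.

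Members often studied for a role of their own were mixed. Rpl5, which with Rpl11 binds 5S rRNA and, when free, the p53 regulator Mdm2, averaged 755 ± 114 CPM in muscle FAPs, 739 ± 109 CPM in lung FAPs and 674 ± 62 CPM in MEFs. Rpl11 averaged 503 ± 83.1 CPM in muscle FAPs, 483 ± 82.3 CPM in lung FAPs and 585 ± 35.2 CPM in MEFs. Their log2 fold changes were 0.16 in muscle FAPs and 0.13 in lung FAPs for Rpl5 and −0.22 in muscle FAPs and −0.28 in lung FAPs for Rpl11, none past the threshold. Against the sum Rpl5 passed as higher in both, at 0.45 in muscle FAPs and 0.50 in lung FAPs, and Rpl11 in neither. The medians of all genes in that fit were 0.27 in muscle FAPs and 0.42 in lung FAPs. Rps6, the substrate of the S6 kinases, stood at −0.05 in muscle FAPs and −0.15 in lung FAPs, and Rpl22, an RNA-binding 60S protein, at 0.01 in muscle FAPs and −0.08 in lung FAPs, likewise without a pass. Rps19, the gene most often mutated in Diamond-Blackfan anaemia, an inherited failure of red cell formation, was lower in both, at −0.64 ± 0.14 (SE, edgeR adjusted p = 0.00205) in muscle FAPs and −0.71 ± 0.13 (SE, edgeR adjusted p = 0.000526) in lung FAPs. Of the 16 tested members tied to that disease in human, 0 were higher and 7 lower in muscle FAPs and 1 higher and 7 lower in lung FAPs than in MEFs, and limma-voom gave 3 and 9 in muscle FAPs. Without lung FAP 2 and 3 the lung FAP counts were 2 and 6. Of all genes 37.3% were lower in muscle FAPs and 36.6% in lung FAPs. The 7 of 16 lower lie near those shares. Rps27a, made as a fusion with ubiquitin, stood at −0.14 in muscle FAPs and −0.35 in lung FAPs, passing in lung FAPs but not without lung FAP 2 and 3 (−0.31, edgeR adjusted p = 0.0705). Rpl38, needed in mouse embryos for the translation of Hox mRNAs, stood at −0.40 in muscle FAPs and −0.24 in lung FAPs and passed in muscle FAPs. Rpl3, at the peptidyl transferase centre, stood at 0.23 in muscle FAPs and 0.03 in lung FAPs, and Rpl4, a 60S protein of the peptide tunnel, at 0.16 in muscle FAPs and 0.00 in lung FAPs, neither passing. Rpl36, which had the largest relative spread of the 73 genes of at least 10 CPM in muscle FAPs and in MEFs, stood at −0.28 in muscle FAPs and −0.37 in lung FAPs and did not pass. By site, the 9 members along the mRNA path counted 0 higher and 5 lower in muscle FAPs, with 0 and 5 at an unadjusted p under 0.05, 2 and 6 with limma-voom and 0 and 5 with DESeq2. In lung FAPs they counted 0 and 4, with 0 and 4 at an unadjusted p under 0.05, 0 and 6 with limma-voom and 0 and 5 with DESeq2. The 7 tested members at the tunnel exit counted 0 and 3 in muscle FAPs, with 0 and 3 at an unadjusted p under 0.05, 0 and 3 with limma-voom and 0 and 3 with DESeq2. In lung FAPs they counted 0 and 2, with 0 and 2 at an unadjusted p under 0.05, 0 and 4 with limma-voom and 0 and 2 with DESeq2. The counts of the tunnel exit lie near the share of all genes that were lower, 37.3% in muscle FAPs and 36.6% in the lung FAPs. Without lung FAP 2 and 3 the lung FAP counts were 1 and 4 for the mRNA path and 0 and 2 for the exit.

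The set holds paralogs of its own members. Rpl39l is a copy of Rpl39 known from male germ cells and lies at chr16:10170226-10174911, while Rpl39, which lines the exit of the peptide tunnel, lies at chrX:37082520-37085402 on the X chromosome. Their coding sequences from GENCODE M21 (GRCm38) have 156 bases each and match at 85.3% of positions, with 23 mismatches (in capitals) and no identical run longer than 38 bases, and no 50-base window of Rpl39l occurs in another annotated gene.
Rpl39l: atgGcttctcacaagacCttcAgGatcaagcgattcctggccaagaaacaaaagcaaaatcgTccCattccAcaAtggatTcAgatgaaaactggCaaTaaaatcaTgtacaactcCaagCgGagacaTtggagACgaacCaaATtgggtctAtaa
Rpl39: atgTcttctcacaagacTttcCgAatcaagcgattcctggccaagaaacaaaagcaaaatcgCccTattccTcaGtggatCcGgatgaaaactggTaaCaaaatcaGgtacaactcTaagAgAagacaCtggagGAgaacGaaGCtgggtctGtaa

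Rpl39l had 3.73, 2.1, 3.94 and 3.8 CPM in muscle FAPs 2 to 5, 0, 0.285, 0.298, 0.465 and 0.0903 CPM in lung FAPs 1 to 5 and 3.85, 5.82, 3.79 and 2.77 CPM in MEFs 1 to 4. Lung FAPs were at or near 0 in every library, and muscle FAPs and MEFs overlapped. The summed counts were 463 over the muscle FAPs, 37 over the lung FAPs and 735 over the MEFs. The log2 fold change was 3.89 ± 0.62 (SE, edgeR adjusted p = 5.14e-05) for muscle over lung FAPs, −4.15 ± 0.63 (SE, edgeR adjusted p = 8.43e-06) for lung FAPs over MEFs and −0.26 ± 0.3 (SE, edgeR adjusted p = 0.666) for muscle FAPs over MEFs. The first 2 passed under each of the 18 alternatives run. Rpl39 itself averaged 310.4 ± 25.6 CPM in muscle FAPs, 344 ± 67.4 CPM in lung FAPs and 408 ± 36.8 CPM in MEFs. Rpl39l counts were 0.00716 to 0.0131 of those of Rpl39 in muscle FAPs, 0 to 0.00109 of them in lung FAPs and 0.00767 to 0.0135 of them in MEFs.

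Rps27l and Rps27 are less alike. Both coding sequences have 255 bases and match at 76.1% of positions, with 61 mismatches (in capitals) and no identical run over 11 bases.
Rps27l: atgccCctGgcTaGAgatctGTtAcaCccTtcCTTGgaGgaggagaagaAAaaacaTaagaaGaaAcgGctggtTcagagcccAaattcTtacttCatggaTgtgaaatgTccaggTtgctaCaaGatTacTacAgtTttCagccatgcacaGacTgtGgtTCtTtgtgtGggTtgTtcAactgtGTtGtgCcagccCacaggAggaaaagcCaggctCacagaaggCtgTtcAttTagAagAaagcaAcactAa
Rps27: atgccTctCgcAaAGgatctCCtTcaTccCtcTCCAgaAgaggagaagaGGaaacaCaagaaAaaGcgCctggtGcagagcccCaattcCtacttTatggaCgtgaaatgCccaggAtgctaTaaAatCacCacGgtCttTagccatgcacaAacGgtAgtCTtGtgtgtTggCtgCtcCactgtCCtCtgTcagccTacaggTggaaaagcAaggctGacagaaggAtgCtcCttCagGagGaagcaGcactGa

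Rps27l was given above. Rps27, at chr3:90212522-90213651, averaged 1.47 ± 0.0704 CPM in muscle FAPs, 0.991 ± 0.452 CPM in lung FAPs and 1.08 ± 0.201 CPM in MEFs, levels that are not read for the reason given with its counts. Rpl3l, which replaces Rpl3 in heart and skeletal muscle fibres, had 7 counts over the muscle FAPs, 12 over the lung FAPs and 8 over the MEFs, and Rpl10l, a testis gene, had 1 count in all 13 libraries together. Rpl22l1, the paralog of Rpl22 that falls outside the set by its symbol, had 66.3, 65.7, 71.2 and 77.2 CPM in muscle FAPs 2 to 5, 83.4, 67, 71.3, 91.9 and 74.5 CPM in lung FAPs 1 to 5 and 18.5, 16.2, 15.3 and 18.8 CPM in MEFs 1 to 4. Both FAPs were far above every MEF, with log2 fold changes of 2.03 ± 0.091 (SE, edgeR adjusted p = 5.67e-10) in muscle FAPs and 2.17 ± 0.11 (SE, edgeR adjusted p = 1.81e-10) in lung FAPs, and they overlapped each other. Of the coding windows of Rpl22l1 84.4% are shared with other annotated genes, 4 in number, so its counts are uncertain. Of the 7 ribosomal protein genes outside the set that were tested, 2 were higher and 4 lower in muscle FAPs than in MEFs (36.1% and 37.3% of all genes). In lung FAPs 1 was higher and 5 lower (37.8% and 36.6% of all genes). Rpl7l1, a relative of Rpl7, was lower in both, at −1.09 in muscle FAPs and −1.49 in lung FAPs. For muscle over lung FAPs it was the one gene of the 7 that passed, at 0.40 ± 0.12 (SE, edgeR adjusted p = 0.00452). There 23.2% of all genes were higher and 25.0% lower. Under library size alone 0 of the 7 passed as higher in that comparison, beside 11.2% of all genes.

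Most genes of ribosome assembly were higher in muscle than in lung FAPs. Assembly factors process ribosomal RNA and fold the subunits in the nucleolus and are not part of the finished ribosome. Of 53 tested, 45 were higher and 0 lower in muscle FAPs than in lung FAPs, with a median log2 fold change of 0.86, beside 0.05 for the ribosomal protein genes and −0.04 for all genes. The counts were 45 and 0 at an unadjusted p under 0.05, 44 and 0 with limma-voom and 45 and 0 with DESeq2. Against MEFs the counts for muscle FAPs were 9 higher and 26 lower, with a median of −0.32, and 2 and 45 in lung FAPs, with a median of −1.26. Under library size alone the 3 counts were 30 higher and 5 lower, 3 and 43, and 1 and 47. Of all genes, 23.2% were higher and 25.0% lower for muscle over lung FAPs, 36.1% and 37.3% for muscle FAPs over MEFs and 37.8% and 36.6% for lung FAPs over MEFs. Under library size alone these shares were 11.2% and 48.4%, 24.4% and 52.5%, and 33.9% and 41.0%. Without lung FAP 2 and 3 the assembly factors counted 40 and 0 for muscle over lung FAPs and 2 and 45 for lung FAPs over MEFs. Rrp12, which in yeast acts in the maturation and export of both subunits, had 19.4, 32.1, 29.8 and 19.3 CPM in muscle FAPs 2 to 5, 6.76, 8.42, 7.24, 8.37 and 8.31 CPM in lung FAPs 1 to 5 and 47.2, 60.1, 57.6 and 49.1 CPM in MEFs 1 to 4. Lung FAPs were lowest and MEFs highest with no overlap, at a log2 fold change of 1.69 ± 0.21 (SE, edgeR adjusted p = 8.07e-07) for muscle over lung FAPs and −2.77 ± 0.11 (SE, edgeR adjusted p = 5.6e-10) for lung FAPs over MEFs. Utp20, a part of the small subunit processome, averaged 31 ± 3.77 CPM in muscle FAPs, 29.9 ± 1.85 CPM in lung FAPs and 166 ± 19.2 CPM in MEFs, with −2.42 ± 0.12 (SE, edgeR adjusted p = 5.57e-11) for muscle FAPs over MEFs.

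**Figure D5:**
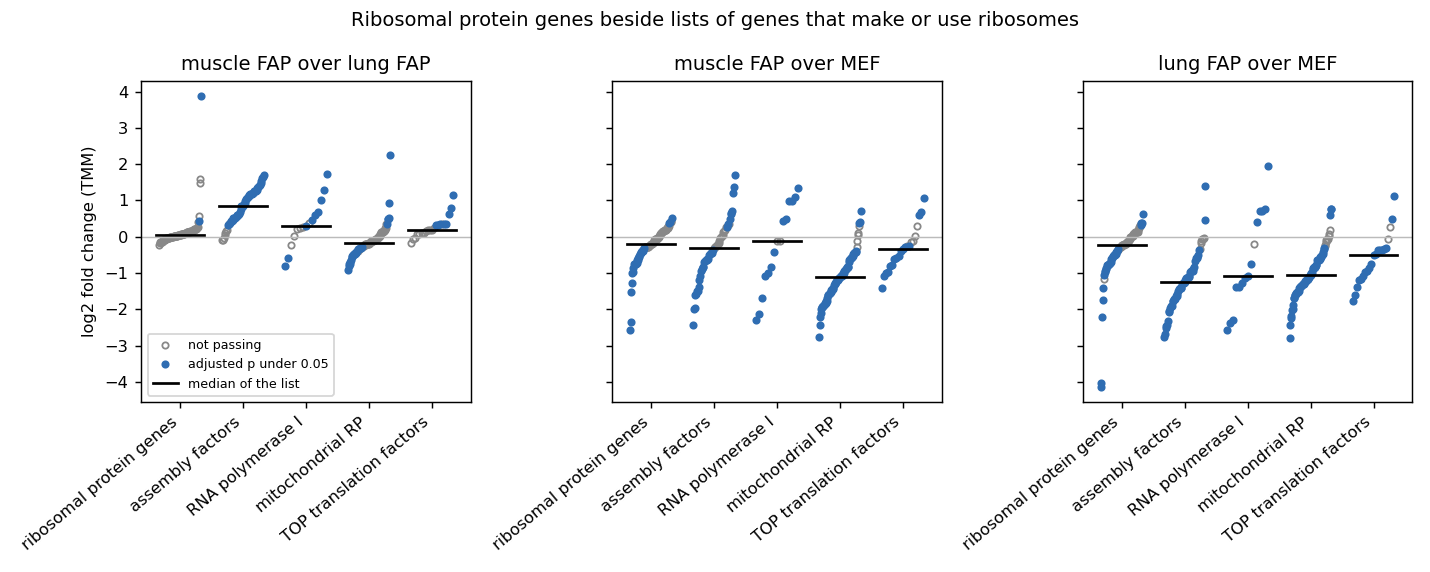
Each point is 1 gene, ranked from low to high within its list, the vertical axis is its log2 fold change under TMM scaling in the comparison above the panel, and the black bar is the median of the list. Filled points have an adjusted p under 0.05. Assembly factors have a median of 0.86 for muscle over lung FAPs (0.46 under library size alone), while the ribosomal protein genes have 0.05 (−0.35 under library size alone).

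The other lists around the ribosome were mixed. Their counts stand beside the same shares of all genes, 23.2% higher and 25.0% lower for muscle over lung FAPs, 36.1% and 37.3% for muscle FAPs over MEFs and 37.8% and 36.6% for lung FAPs over MEFs. RNA polymerase I, which transcribes ribosomal DNA, counted 7 higher and 2 lower of 15 for muscle over lung FAPs, with 3 and 4 under library size alone, 6 higher and 7 lower of 15 for muscle FAPs over MEFs and 5 higher and 9 lower of 15 for lung FAPs over MEFs. Its subunit gene Twistnb averaged 31.6 ± 5.18 CPM in muscle FAPs, 9.44 ± 1.58 CPM in lung FAPs and 16 ± 2.81 CPM in MEFs, with 1.74 ± 0.16 (SE, edgeR adjusted p = 5.27e-07) for muscle over lung FAPs. Another subunit gene, Cd3eap, averaged 7.25 ± 1.25 CPM in muscle FAPs, 6.0 ± 2.04 CPM in lung FAPs and 35.7 ± 4.01 CPM in MEFs, with −2.3 in muscle FAPs and −2.57 in lung FAPs over MEFs. Chaperones and importers of ribosomal proteins counted 8 higher and 0 lower of 12 for muscle over lung FAPs, with 9 and 0 at an unadjusted p under 0.05, 8 and 0 with limma-voom and 8 and 0 with DESeq2, and 1 and 2 under library size alone. Over MEFs they counted 1 higher and 9 lower of 12 in muscle FAPs and 1 higher and 11 lower of 12 in lung FAPs. Ipo5, an importin, stood at 1.02 ± 0.14 (SE, edgeR adjusted p = 1.15e-05) for muscle over lung FAPs, and Kpnb1, importin beta 1, at −1.83 in muscle FAPs and −1.99 in lung FAPs over MEFs.

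Translation factors whose mRNAs carry the TOP motif, as those of the set do, counted 8 higher and 0 lower of 21 for muscle over lung FAPs, with 10 and 0 at an unadjusted p under 0.05, 10 and 0 with limma-voom and 10 and 0 with DESeq2, and 2 and 6 under library size alone. Over MEFs they counted 3 higher and 13 lower of 21 in muscle FAPs and 2 higher and 17 lower of 21 in lung FAPs. Pabpc1, the poly(A)-binding protein, averaged 644 ± 62 CPM in muscle FAPs, 292 ± 36.2 CPM in lung FAPs and 764 ± 8.7 CPM in MEFs, with 1.14 ± 0.11 (SE, edgeR adjusted p = 1.14e-06) for muscle over lung FAPs. Eef1g, a subunit of elongation factor 1, stood at −1.42 in muscle FAPs and −1.6 in lung FAPs over MEFs, and Npm1, a nucleolar chaperone, at −0.97 in muscle FAPs and −1.77 in lung FAPs. Among the regulators of mTORC1 and of TOP mRNAs the counts were 12 higher and 1 lower of 22 for muscle over lung FAPs, with 5 and 5 under library size alone, 7 higher and 11 lower of 22 for muscle FAPs over MEFs and 3 higher and 14 lower of 22 for lung FAPs over MEFs. The 7 of 22 higher in muscle FAPs than MEFs are no larger a share than the 36.1% of all genes. Mycn, a relative of Myc, averaged 2.7 ± 1.07 CPM in muscle FAPs, 0.854 ± 0.309 CPM in lung FAPs and 1.43 ± 0.311 CPM in MEFs, and stood at 1.66 ± 0.34 (SE, edgeR adjusted p = 0.00129) for muscle over lung FAPs. Akt1s1, the mTORC1 inhibitor PRAS40, stood at −2.69 in muscle FAPs and −2.88 in lung FAPs over MEFs, and Rps6ka1, a kinase of Rps6, at −2.9 in muscle FAPs and −1.92 in lung FAPs.

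Factors that rescue stalled ribosomes counted 5 higher and 2 lower of 10 for muscle over lung FAPs, with 0 and 4 under library size alone, 3 higher and 3 lower of 10 for muscle FAPs over MEFs and 3 higher and 5 lower of 10 for lung FAPs over MEFs. The 3 and 3 of 10 for muscle FAPs over MEFs lie below the shares of all genes, 36.1% and 37.3%. Pelo, which splits stalled ribosomes, stood at 0.69 ± 0.19 (SE, edgeR adjusted p = 0.0046) for muscle over lung FAPs, and Gtpbp2, a GTPase that works with Pelo, at 1.55 in muscle FAPs and 1.78 in lung FAPs over MEFs. The 76 mitochondrial ribosomal protein genes, which build the ribosome of mitochondria, counted 6 higher and 23 lower of 76 for muscle over lung FAPs, with 2 and 58 under library size alone. Against MEFs they counted 3 higher and 68 lower of 76 in muscle FAPs and 3 higher and 63 lower of 76 in lung FAPs, with medians of −1.12 and −1.05, beside −0.21 and −0.24 for the cytosolic set. Mrps6 averaged 38.5 ± 4.14 CPM in muscle FAPs, 8.11 ± 2.03 CPM in lung FAPs and 55.9 ± 6.12 CPM in MEFs, with 2.25 ± 0.18 (SE, edgeR adjusted p = 4.85e-08) for muscle over lung FAPs, and Mrpl34 stood at −2.75 in muscle FAPs and −2.0 in lung FAPs over MEFs.

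Without lung FAP 2 and 3 the counts higher and lower for muscle over lung FAPs were 6 and 2 for RNA polymerase I, 5 and 0 for chaperones and importers and 3 and 0 for the translation factors. They were 10 and 1 for mTORC1 and TOP control, 3 and 2 for ribosome rescue and 5 and 23 for the mitochondrial genes. Of all genes 22.1% were then higher and 22.7% lower. In lung FAPs over MEFs they were 5 and 9 for RNA polymerase I, 1 and 10 for chaperones and importers and 2 and 14 for the translation factors. They were 3 and 15 for mTORC1 and TOP control, 2 and 4 for ribosome rescue and 3 and 60 for the mitochondrial genes, beside 35.8% higher and 37.0% lower of all genes. The counts higher in muscle than in lung FAPs thus moved by over 1.5 times for translation factors, for chaperones and importers and for rescue factors.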

How the data were processed

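Per the labels' protocols, RNA of the 13 mouse samples came from Trizol followed by RNeasy columns, and libraries from Illumina's preparation. The submitters' processing notes name Bowtie2 2.1.0.0, HTSeq, edgeR and mm10 without saying how each was used, and the deposited table holds read counts per gene for 23418 genes, with 0 columns of other samples. The sources used here give no strand setting, annotation version or batches.

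Counts were fitted in edgeR 4.0.16 (R 4.3.3) by quasi-likelihood with robust dispersion, TMM scaling and group as the only factor, all 13 libraries in 1 fit, after filterByExpr (15412 genes). A gene passed at an adjusted p under 0.05. The second fit used the summed counts of the 80 genes as library size. The SE of a log2 fold change is that of log2 CPM with a prior count of 2, and carries the spread between libraries. Gene positions, coding sequences and windows are from GENCODE M21 (GRCm38, the build of mm10), from a principal coding transcript of each gene.

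The 80 genes, the lists and the rule for named genes were chosen with earlier results of these data known, so no list is independent support. The rule names, per comparison, the 5 highest and lowest log2 fold changes, the 3 highest and lowest passing against the sum, the paralogs and their partners, 11 members with roles of their own, the highest and most variable member of each group, and the passing gene of largest fold change from each list. Others are named as examples, chosen after their values were seen. Alternatives were size factors and the Wald test of DESeq2 1.42.0, upper-quartile scaling, library size alone, no filter, at least 5 CPM in at least 4 libraries, limma-voom (limma 3.58.1) with sample weights, a fit of only the groups compared, a block for replicate number, each library left out, lung FAP 2 and 3 left out, and other sums or denominators.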

Additional observations from a re-analysis of the deposited data

Results flagged for a closer look

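In 13 of 100 groups of libraries examined, 1 library stood far from the others of its group, judged by its gap to the nearest library over the group's range. Chance gives such a gap in about 1 in 20 groups, and genes of 1 library are not independent. Lung FAP 4 was the high library in 10 of them. For the summed share of counts its gap was 0.754 of the range, with 5.25% beside 3.33 to 3.8% in the other lung FAPs. For single genes it was 0.839 for Rpl11, 0.761 for Rpl21, 0.843 for Rpl36, 0.944 for Rpl38, 0.747 for Rplp1, 0.788 for Rps15, 0.783 for Rps21, 0.894 for Rps28 and 0.888 for Rps29. Rpl38 had 172, 171, 174, 256 and 176 CPM in lung FAPs 1 to 5. Lung FAP 4 also had the fewest counts (28636183) and the highest sum of FAP markers of the lung FAPs (24254 CPM), and the part of either in its level was not tested.

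Muscle FAP 3 was low for Rpl39l, with a gap of 0.882 and 2.1 CPM. MEF 3 was low for Rpl4, with a gap of 0.877 and 1203, 1189, 1049 and 1209 CPM in MEFs 1 to 4. MEF 2 held the single count of Rpl10l, a gap of 1, the whole range.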

How the results depend on the processing

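In counts of genes passing higher and lower, DESeq2 size factors and no filter left every count within 1.5 times. For muscle over lung FAPs (2 and 0) the count higher was 1 under upper-quartile scaling, library size alone or the replicate block (Rpl7a lost its call in each, at 0.43 and adjusted p = 0.0505 with the block in edgeR) and under the stricter filter, 4 in the Wald test of DESeq2 and 9 with limma-voom, and the count lower was 41 under library size alone. The stricter filter left Rpl39l untested. Over MEFs, muscle FAPs (3 and 26) gave 0 and 69 under library size alone, 10 higher with limma-voom and 9 higher with the compared groups alone, and lung FAPs (4 and 31) gave 1 and 48 under library size alone and 7 higher under the stricter filter. Leaving out 1 library gave 1 to 14 higher and 0 lower for muscle over lung FAPs, 1 to 4 and 22 to 29 for muscle FAPs over MEFs and 3 to 4 and 28 to 49 for lung FAPs over MEFs. Against the sum, muscle over lung FAPs (3 and 0) gave 1 higher with the replicate block and 1 to 3 with 1 library left out (1 without muscle FAP 3). Over MEFs the counts against the sum stayed within 1.5 times under all alternatives. By the median of ratios they were 18 and 19 in muscle FAPs and 21 and 22 in lung FAPs. Of all 15412 genes, 5894 were then higher and 4417 lower in muscle FAPs, and 6467 and 3999 in lung FAPs.

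No pairing by replicate number was seen, since deviations of same-numbered samples correlated at −0.048 to 0.061. The sources used here do not say whether such samples belong together, and with so few samples this check cannot exclude it. With the replicate block the counts were 1 and 0 for muscle over lung FAPs, 3 and 24 and 3 and 31 over MEFs, and against the sum 1 and 0, 17 and 13 and 22 and 15. Of all 15412 genes, the fit against the sum with this block gave 1951 higher and 2897 lower for muscle over lung FAPs. Over MEFs it gave 5729 and 3772 in muscle FAPs and 6364 and 3498 in lung FAPs. Nor did every sample correlate best with its own number, since this held for 1 of 4 muscle FAPs and 2 of 4 lung FAPs against each other, 2 of 3 muscle FAPs and 2 of 3 MEFs, and 1 of 4 lung FAPs and 0 of 4 MEFs.

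The summed share was 3.92% in muscle FAPs and 4.82% in MEFs over the TMM effective library, and 4.82% in muscle FAPs, 5.35% in the lung FAPs and 6.601% in MEFs without the 100 highest genes. Of the assembly factors, library size alone gave 5 lower for muscle over lung FAPs, 3 higher and 43 lower for muscle FAPs over MEFs and 1 higher for lung FAPs over MEFs, where limma-voom also gave 1 and leaving out 1 library 1 to 2 (1 without lung FAP 4 or 5 or MEF 2 or 3). These alternatives for the list, and the fit against the sum without lung FAP 2 and 3, were chosen after seeing the data.

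For single genes, 1295 of 1382 values over 76 results kept direction and side of the threshold, 26 lost the call and 48 gained it. The 13 that changed sign, counted where either value passes, all came with library size alone. For muscle over lung FAPs these were Rpl10 (−0.39), Rps4x (−0.39), Rpsa (−0.40), Rpl5 (−0.37), Rpl11 (−0.35) and Rpl22 (−0.32), and for muscle FAPs over MEFs Rps4x (−0.20), Rpl10 (−0.17), Rpl21 (−0.05), Rpl3 (−0.34), Rpl5 (−0.42), Rpl22 (−0.57) and Rpl4 (−0.42). Library size alone shifts all genes, with medians of −0.44 and −0.62 in these 2 comparisons. The cause of the other changes was not tested.

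The next shares are of all genes that passed under these alternatives, without the fits against the sum, beside those in the text. They ran from 18.5 to 26.7% higher and 19.3 to 28.4% lower for muscle over lung FAPs. For muscle FAPs over MEFs they were 28.2 to 39.7% and 30.5 to 41.7%, and for lung FAPs over MEFs 30.4 to 39.9% and 30.8 to 39.1%. Values of Rpl39l, Rpl3l and Rpl10l rest on few counts, and why Rpl26, Rpl30, Rpl34 and Rps27 have few or none was not tested.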
